A study of Mus musculus with 8 samples.

Results

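The myogenic genes described here are 10 genes of muscle stem cells and of muscle formation, listed by name for their known roles, with earlier results of these data known. They are *Pax7*, *Pax3*, *Cdh15*, *Ncam1*, *Myf5*, *Myod1*, *Myog*, *Myf6*, *Tmem8c* and *Gm7325*, of 21980 gene symbol entries in the authors' table of the array. The current symbols of *Tmem8c* and *Gm7325* are *Mymk* and *Mymx*. Each of the 10 had 1 probe set, the group of short probes that measures a gene. The authors' software marked all 10 as expressed in both groups, but it did so for 21222 of all 22206 probe sets, so the mark says little about a gene. *Pax7* and *Myf5*, with means of 4.88 and 5.23 on the log2 scale, were among the dimmest 30% of probe sets, those below 5.715. RNA came from gastrocnemius (GAS) muscles of male C57/Bl6j mice that were injected at 10 weeks of age and studied 12 weeks later, at 22 weeks. In the MYTHO-KD group, 4 muscles received AAV sh-RNA MYTHO, an adeno-associated virus whose U6 promoter drives a short hairpin RNA against *Mytho*. In the scramble group, 4 muscles received the same kind of virus with a scramble hairpin, AAV sh-RNA scrmb, so that both groups carried virus and hairpin. The scramble virus was given to the leg opposite the treated one. The U6 promoter is not restricted to muscle fibres, so the hairpin could act in any cell that took up the virus.

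Adult fibres are repaired by satellite cells, which lie between the fibre and its basement membrane and are marked by the paired box factor Pax7. Once activated, these cells switch on the myogenic regulatory factors Myf5 and MyoD, divide, turn on myogenin and then differentiate. They fuse with each other or with fibres through 2 membrane proteins, Myomaker (*Tmem8c*) and Myomerger (*Gm7325*). The myogenic factors bind DNA at E-boxes, short elements that read CANNTG on either strand.

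To show what such elements look like, the 250 bases before the RefSeq start of *Myog*, a classical target of the myogenic factors, and of *Chrna1*, a muscle gene that rose in MYTHO-KD, are given with their E-boxes in capitals (RefSeq, build GRCm38.p6, 5′ to 3′ on the strand of the gene). *Myog* lies on the plus strand (chr1:134289754-134290003), and its E-boxes begin at positions -138 and -12, counted back from -1, the base before the start. *Chrna1* lies on the minus strand (chr2:73580339-73580588), with E-boxes at -92, -73 and -44.
Myog: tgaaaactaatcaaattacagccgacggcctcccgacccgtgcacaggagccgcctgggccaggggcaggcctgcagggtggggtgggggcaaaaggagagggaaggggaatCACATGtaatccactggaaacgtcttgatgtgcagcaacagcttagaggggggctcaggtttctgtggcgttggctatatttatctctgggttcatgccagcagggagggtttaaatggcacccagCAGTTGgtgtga
Chrna1: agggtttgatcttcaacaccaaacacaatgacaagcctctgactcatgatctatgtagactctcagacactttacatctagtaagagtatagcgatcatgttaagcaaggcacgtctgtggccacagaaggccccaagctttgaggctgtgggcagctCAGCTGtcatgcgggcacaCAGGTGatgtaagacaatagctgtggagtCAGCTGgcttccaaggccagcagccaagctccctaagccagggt

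The motif is common. Of 32851 promoter windows of this length, 66.2% held at least 1 E-box, 31.8% at least 2 and 12.2% at least 3. The promoter table matched 4 of the 10 members, and the window held 3 E-boxes in *Cdh15* and none in *Pax7* or *Myf5*. No window was available for *Tmem8c* or *Gm7325*, so the E-boxes shown do not bear on these genes. A match of letters is a description of the window and not evidence of binding.

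Clariom S arrays gave 1 signal per probe set on the log2 scale, and the authors' table analysed here holds the average and the standard deviation (SD) of each group, with no values of single arrays. The member values below are therefore group averages and SDs over 4 arrays, and whether single arrays of the groups overlap cannot be read from them. The target of the hairpin, listed as *D230025D16Rik*, averaged 7.71 in MYTHO-KD and 10.02 in scramble (SDs 0.66 and 0.37), which leaves 20.2% of the scramble signal (difference -2.31 on the log2 scale, 95% interval -2.97 to -1.65, adjusted p = 0.0138, limma). The median SD over all 22206 probe sets was 0.27 in each group. Of the fibre markers, *Acta1* and *Myh4* stood at 19.93 (log2) in both groups, the ceiling of the scale. *Myh1* and *Myh2* had higher averages in MYTHO-KD (differences 0.59 and 0.41, unadjusted p = 0.00873 and 0.0197, limma). *Myh2* reached 19.91 there, close to the ceiling. Of the 8 fibre markers, 4 had lower averages and 0 were called. Levels of different genes are not compared, because probes differ in brightness.

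In muscles with MYTHO-KD, *Tmem8c* was the member that rose, to 3.41 times its scramble level. That scramble level lay little above the limit of 5.715 for dim probe sets. Neither the other fusion gene, *Gm7325*, nor any satellite cell gene or myogenic factor passed the test. A gene was called when its groups differed at least 2-fold and limma gave an unadjusted p below 0.05, the rule of the study's methods. By this rule 1 of 10 members was called higher and 0 of 10 lower, while of all probe sets 0.86% were called higher and 0.257% lower. No member passed Benjamini-Hochberg adjustment over all probe sets in this test at 0.05, which 0.275% of probe sets did, and 1 member had an unadjusted p under 0.05. The differences of the 10 members had a median of 0.03 (log2), against -0.01 over all probe sets, with 5 above and 5 below 0.

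**Figure D1:**
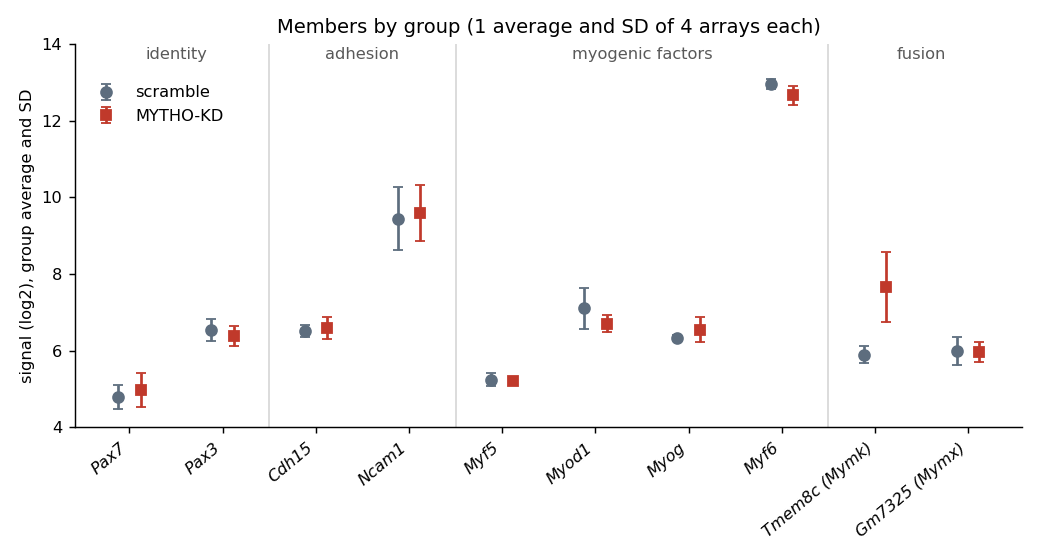
Signal of the 10 members on the log2 scale in scramble (grey circles) and MYTHO-KD (red squares), as the authors' group average with bars of 1 SD over 4 arrays. The groups' bars are apart for *Tmem8c*, 5.90 in scramble and 7.67 in MYTHO-KD, and the averages of the other 9 members differ by 0.40 or less; heights are not comparable between genes.

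*Tmem8c* encodes Myomaker, the membrane protein that makes the outer membranes of fusing muscle cells mix, and it is normally very low in resting adult muscle. It lies on chromosome 2 from 27061636 to 27072179 on the minus strand (mm10). The authors' average was 5.90 (log2) in scramble with an SD of 0.22, and 7.67 in MYTHO-KD with an SD of 0.91. The scramble arrays were thus close together, and the MYTHO-KD arrays were spread more widely around a higher level. The scramble average lay little above the dim limit of 5.715, so the fold and its interval rest on a weak scramble signal. The difference was 1.77 on the log2 scale (standard error 0.362, 95% interval 0.98 to 2.56), or 3.41-fold with an interval of 1.97 to 5.89. Its unadjusted p was 0.000385 and its adjusted p was 0.0749 (limma), so the rise passed the study's rule and not the adjustment. Counting *Tmem8c*, 34 of 22206 probe sets had a difference as large or larger in this direction. Macrophage and fibroblast markers were higher in the same group, with the values given at the end, and their part in the rise of *Tmem8c* was not tested.

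*Gm7325* encodes Myomerger, a short membrane protein that acts after Myomaker to open the fusion pore. It lies on chromosome 17 from 45600967 to 45602102. Its average was 5.99 in scramble (SD 0.37) and 5.98 in MYTHO-KD (SD 0.26), nearly the same level in both groups. The difference was -0.01 (95% interval -0.48 to 0.46, adjusted p = 0.990, limma), so that a rise above 1.37-fold lies outside the interval. With a mean of 5.985, little above the dim limit of 5.715, this interval does not show that the transcript stayed the same. The differences of both fusion genes were not tested against each other, since the table analysed here gives group averages.

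Among the markers of satellite cell identity, *Pax7* averaged 4.79 in scramble (SD 0.31) and 4.97 in MYTHO-KD (SD 0.44). The difference of 0.18 (95% interval -0.34 to 0.70, adjusted p = 0.834, limma) was smaller than either SD. *Pax3*, the related factor that directs muscle precursors in the embryo and stays on in some adult satellite cells, averaged 6.55 in scramble (SD 0.29) and 6.39 in MYTHO-KD (SD 0.26). Its difference was -0.16 (95% interval -0.59 to 0.27, adjusted p = 0.821, limma). For both genes the bars of 1 SD overlapped. In RNA of whole muscle, fewer satellite cells and less of a transcript per cell cannot be told apart.

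*Cdh15* encodes M-cadherin, which joins satellite cells to the fibre. It averaged 6.52 in scramble (SD 0.16) and 6.59 in MYTHO-KD (SD 0.29), and its difference of 0.07 had a 95% interval of -0.33 to 0.47 (adjusted p = 0.933, limma). *Ncam1*, an adhesion molecule of satellite cells, nerve and nerve-muscle contacts that also spreads over fibres that lose their nerve, averaged 9.44 in scramble and 9.60 in MYTHO-KD. Its SDs were 0.82 and 0.73, and 0.662% of all probe sets had a larger pooled SD. The difference of 0.16 therefore had a wide interval (-0.75 to 1.07, adjusted p = 0.933, limma). *Ncam1* was the single member outside *Tmem8c* for which a 2-fold rise stayed within the 95% interval.

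The myogenic regulatory factors did not pass the test. *Myf5*, which acts early and is on in many satellite cells, averaged 5.25 in scramble (SD 0.17) and 5.21 in MYTHO-KD (SD 0.08), a difference of -0.04 (95% interval -0.38 to 0.30, adjusted p = 0.960, limma). *Myod1*, the factor of activated satellite cells, averaged 7.11 in scramble (SD 0.54) and 6.71 in MYTHO-KD (SD 0.22). Its difference of -0.40 was the farthest below 0 among the members (95% interval -0.95 to 0.15, unadjusted p = 0.137, adjusted p = 0.577, limma). The scramble average of *Myod1* came with the wider spread, the reverse of *Tmem8c*.

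*Myog* encodes myogenin, which drives differentiation and rises in regenerating and denervated fibres. It averaged 6.34 in scramble with an SD of 0.06 and 6.55 in MYTHO-KD with an SD of 0.32. The scramble arrays were almost alike, and the MYTHO-KD average stood 0.21 higher (95% interval -0.19 to 0.61, unadjusted p = 0.273, adjusted p = 0.720, limma), at most 1.52-fold by this interval. *Myf6*, also called MRF4, is the factor that stays on in mature fibres. It averaged 12.95 in scramble (SD 0.13) and 12.66 in MYTHO-KD (SD 0.25), a difference of -0.29 (95% interval -0.67 to 0.09, unadjusted p = 0.120, adjusted p = 0.558, limma). With 4 arrays a group, a difference between 0.34 and 0.91 (log2), depending on the gene, would have been needed for an unadjusted p of 0.05 in the 9 members other than *Tmem8c*. The 95% interval lay within 2-fold in either direction for 8 of these 9 and within 1.5-fold for 3, which were *Cdh15*, *Myf5* and *Gm7325*. *Myf5* lay below the dim limit of 5.715 and *Gm7325*, with a mean of 5.985, little above it, so that narrow intervals there do not show that the transcripts stayed the same.

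**Figure D2:**
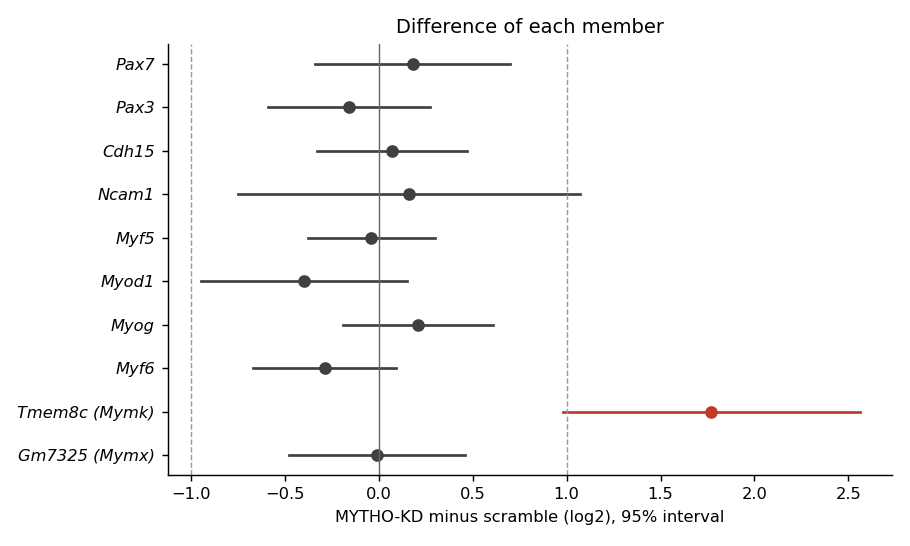
Difference of each member, MYTHO-KD minus scramble on the log2 scale, with the 95% interval of limma's moderated test; dashed lines mark 2-fold. *Tmem8c* (red, 1.77) is the called member, and the intervals of the other 9 include 0, with differences from -0.40 to 0.21.

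The spread between arrays also differed between the groups for some members. The SD of *Tmem8c* was 4.14 times larger in MYTHO-KD than in scramble, a ratio reached or passed by 2.86% of the 22185 probe sets with both SDs above 0. For *Myog* the ratio was 5.33, reached or passed by 1.44%. In *Myod1* and *Myf5* the larger SD was that of scramble, with ratios of 0.407 and 0.471. The SD was larger in MYTHO-KD for 5 of the 10 members, beside 48.1% of all probe sets. These ratios rest on 4 arrays a group and were not tested.

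**Figure D3:**
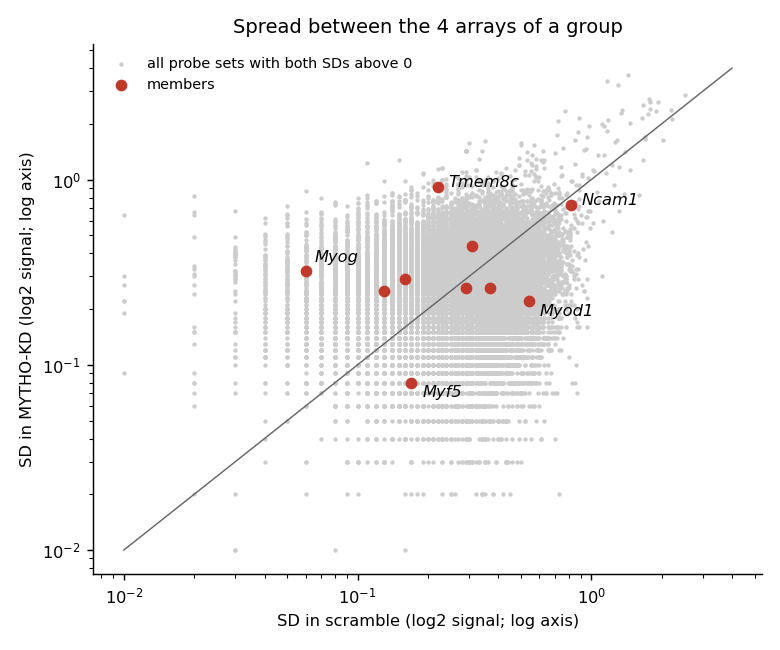
SD between the 4 arrays of MYTHO-KD (vertical) against that of scramble (horizontal) in log2 signal, both on log axes; grey points are the probe sets with both SDs above 0, red points the 10 members, and the line marks equal SDs. *Tmem8c* (0.91 against 0.22) and *Myog* (0.32 against 0.06) lie above the line, *Myod1* (0.22 against 0.54) and *Myf5* (0.08 against 0.17) below it.

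To place the members among the genes they work with, 120 further genes were read from 6 lists: satellite cell genes, partners and inhibitors of the myogenic factors, embryonic and differentiation genes, fusion genes, denervation genes and proliferation genes. Of these 120, 5 were called higher (4.17%, beside 0.86% of all probe sets) and 1 was called lower (0.833%, beside 0.257%), and their median difference was 0.04 (log2). After adjustment over all probe sets, limma left 0 of them below 0.05, and without adjustment 21 higher and 6 lower averages were below it (17.5% and 5.0%, beside 6.48% and 5.52% of all probe sets). The called genes were *Cdkn1a*, *Myom3*, *Myh3*, *Chrna1* and *Runx1*, higher, and *Mstn*, lower. The calls of *Cdkn1a*, *Myh3* and *Mstn* were lost when the groups were allowed unequal variances.

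The embryonic and differentiation list held most of the called genes. Of its 19 genes, 4 were called higher and 0 lower, beside 0.86% and 0.257% of all probe sets, with a median difference of 0.48. The average was higher in MYTHO-KD for 13 and lower for 4, among them *Chrng* (-0.10) and *Sln* (-0.41). In limma's test 9 had an unadjusted p under 0.05 with a higher average in MYTHO-KD, which 6.48% of all probe sets did. *Cdkn1a*, the p21 inhibitor of cell division that myoblasts turn on as they leave the cell cycle, rose from 8.98 to 10.73 with SDs of 0.58 in scramble and 1.29 in MYTHO-KD (difference 1.75, standard error 0.523, adjusted p = 0.200, limma). *Myom3*, a myomesin of the sarcomere's M-band, rose from 8.32 to 9.61 (difference 1.29, adjusted p = 0.146). *Myh3*, the embryonic myosin heavy chain of newly formed fibres, rose from 6.46 to 7.73, with SDs of 0.63 and 1.28 (difference 1.27, unadjusted p = 0.0331, adjusted p = 0.366). *Chrna1*, the alpha subunit of the muscle acetylcholine receptor, rose from 6.73 to 7.80, with SDs of 0.31 and 0.57 (difference 1.07, adjusted p = 0.141). The probe set of *Myh8*, the perinatal myosin, stood at the ceiling of 19.93 with an SD of 0 in both groups. A rise could thus not be seen, and whether this probe set reads that transcript alone was not tested. *Tnni1*, the slow troponin I in the same list, had an SD of 3.67 in MYTHO-KD against 1.43 in scramble, and the slow myosin *Myh7* had SDs of 3.26 and 1.30. The muscles of each group thus differed widely in slow-fibre RNA, whose part in the other values was not tested.

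The wider satellite cell list gave 0 called genes of 25 in either direction, with a median difference of 0.04. Its largest difference was that of *Sdc4*, a syndecan on satellite cells and many other cells, which averaged 8.61 in scramble and 9.45 in MYTHO-KD (difference 0.84, unadjusted p = 0.00231, adjusted p = 0.147, limma). *Cd34*, found on quiescent satellite cells and on endothelium and connective tissue cells, averaged 11.51 and 12.16 (difference 0.65, adjusted p = 0.154). *Sdc3*, another syndecan, averaged 9.04 and 9.63 (difference 0.59, adjusted p = 0.437). Of the proliferation genes, 0 of 14 were called and the median difference was -0.165. The largest of these were *Bub1* (-0.60), *Ccnd1* (0.49, a probe set listed with *Mir3962* as well) and *Mcm2* (-0.47), with adjusted p-values of 0.462, 0.361 and 0.311 (limma). *Bub1*, at 5.06 in scramble and 4.46 in MYTHO-KD, lay below the dim limit of 5.715, as did other genes of this list. Small differences of such genes do not show that proliferation stayed the same.

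Among 27 partners and inhibitors of the myogenic factors, *Mstn* was called lower and none higher, beside 0.257% and 0.86% of all probe sets. The median difference of this list was -0.01. *Mstn* encodes myostatin, the secreted inhibitor of muscle growth, and fell from 13.71 to 12.45 with SDs of 0.39 in scramble and 1.10 in MYTHO-KD (difference -1.26, standard error 0.439, adjusted p = 0.275, limma). The E-box repressor *Zbtb18* (0.64) and the deacetylase *Hdac9*, which restrains MEF2 factors (0.58), followed in size, with unadjusted p-values of 0.0110 and 0.0185 in limma's test. Of the 24 other fusion genes, 0 were called, with a median difference of 0.13. The average was higher in MYTHO-KD for 18 and lower for 6. In limma's test 5 of the higher and 1 of the lower had an unadjusted p under 0.05, beside 6.48% and 5.52% of all probe sets. *Myof*, which encodes the membrane protein myoferlin, averaged 7.90 in scramble and 8.81 in MYTHO-KD (difference 0.91, adjusted p = 0.221), ahead of the adhesion receptor *Adgrg1* (0.65) and the Rac adaptor *Elmo1* (0.57). Beside *Tmem8c*, its relatives *Tmem8* and *Tmem8b*, named here after their values were seen, had differences of 0.65 and 0.79 with adjusted p-values of 0.164 and 0.153 (limma).

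Genes of the denervation list, not all of which rise when muscle loses its nerve, lay on both sides of 0. Of 15, *Runx1* and *Chrna1* were called higher and 0 lower, beside 0.86% and 0.257% of all probe sets. The average was lower in MYTHO-KD for 12 of the 15, and the median was -0.10. *Runx1*, a transcription factor of denervated and injured muscle, rose from 6.74 to 7.96 with SDs of 0.48 and 0.62 (difference 1.22, adjusted p = 0.146, limma). *Musk*, the receptor kinase of the nerve-muscle synapse, averaged 13.52 in scramble and 12.81 in MYTHO-KD (difference -0.71, unadjusted p = 0.00574, adjusted p = 0.199). It was 1 of 2 genes of this list with a lower average at an unadjusted p under 0.05, as were 5.52% of all probe sets.

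**Figure D4:**
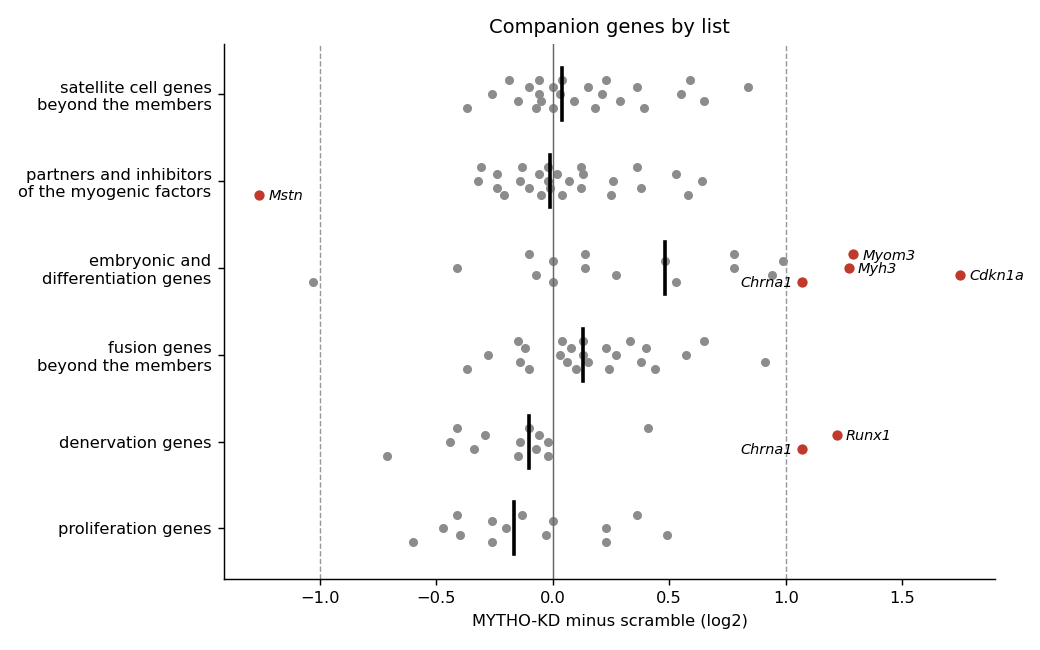
Difference, MYTHO-KD minus scramble on the log2 scale, of each gene in the 6 lists (points), with the list's median as a black bar and dashed lines at 2-fold; called genes are red and named. The embryonic and differentiation genes have a median of 0.48 and the other 5 lists lie between -0.165 and 0.13. *Chrna1*, *Chrng*, *Sln* and *Hdac4* each stand in 2 lists.

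Macrophage, fibroblast and endothelium markers had higher averages in MYTHO-KD, and Schwann cell and smooth muscle markers lay on both sides of 0. All 9 macrophage markers had a higher average in MYTHO-KD, and 3 were called higher, beside 0.86% of all probe sets. The summed signal of the list, the log2 of its added linear averages, was 10.99 in scramble and 12.26 in MYTHO-KD. *Cd68*, a lysosomal protein of macrophages, rose by 2.53 (adjusted p = 0.0182) and *Lyz2*, their lysozyme, by 1.94 (adjusted p = 0.0277, limma). Differences were smaller for *Mrc1* (0.37, unadjusted p = 0.178) and *Adgre1* (0.48, unadjusted p = 0.0573, limma), which were not called. All 5 fibroblast markers had higher averages, with the matrix genes *Lum* and *Col3a1* called and summed signals of 16.62 and 16.94. Such sums are set mostly by the brightest probe sets. The fibroblast sum followed *Dcn*, which averaged 16.58 in scramble and 16.86 in MYTHO-KD (difference 0.28) and was not called. The 4 endothelium markers had higher averages and none was called, with summed signals of 13.43 and 13.88. Of the Schwann cell markers, 0 of 5 were called (median -0.17, sums 9.52 and 9.29), and of 4 smooth muscle markers 0 (median 0.005, sums 14.90 and 14.96). The part of these cells in the values of *Tmem8c* and the embryonic and differentiation genes was not tested.

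**Figure D5:**
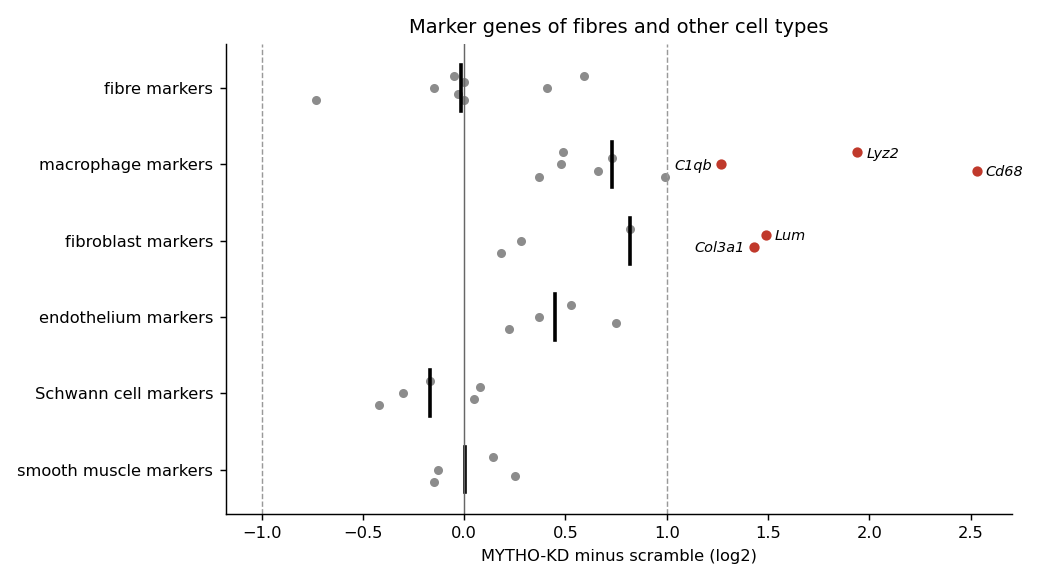
Difference, MYTHO-KD minus scramble on the log2 scale, of marker genes of fibres and of 5 other cell types (points), with medians as black bars, called genes in red and dashed lines at 2-fold. Medians are 0.73 for macrophages, 0.82 for fibroblasts and 0.45 for endothelium, and those of fibres, Schwann cells and smooth muscle lie between -0.17 and 0.005. The fibre median includes *Acta1* and *Myh4*, which stood at the ceiling in both groups and could not show a difference.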

How the data were processed

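RNA of 8 GAS muscles was hybridized to Clariom S Mouse arrays, 4 per group. Signals were normalized by the authors (SST-RMA), who deposited, on the log2 scale and with a decimal comma, 1 average, 1 SD and 1 expression flag per group for 22206 probe sets (mm10). The submitters' processing notes name Affymetrix Expression Console and RMA. The table's columns of fold changes, p-values and false discovery rates of the authors' own comparison were not used. It holds 28 columns and 0 of single arrays, so muscles could not be matched by mouse and the groups were tested as independent.

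Members were found by symbol. Differences were tested in R 4.3.3 with limma 3.58.1 from averages and SDs: group variances were averaged (6 residual degrees of freedom), moderated with squeezeVar (prior SD 0.284, 5.85 degrees of freedom), and two-sided p-values were adjusted over all probe sets by Benjamini-Hochberg. The calculation was checked on simulated arrays summarized as plain means and SDs, where it gave the p-values of limma on those arrays. This check does not cover averages of another kind. A gene measured by more than 1 probe set was read from the brightest. List genes are named if called, or if among the 3 largest differences of a list, and a few more to show the ceiling, the spread or the other direction. Markers are named by size of change or brightness. Lists are described by counts and medians, with no test of a list. Members and lists were chosen with earlier results of these data known.

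The kind of average is not stated. *Tpm1* in MYTHO-KD stood at the ceiling (19.93) with an SD of 0.04, while a plain mean of 4 values under that ceiling allows at most 0.02. The averages are therefore unlikely to be plain means, and p-values may be too low. Nothing says whether arrays of the groups were run in separate batches. Alternatives changed the moderation, the equality of variances, the filter on dim probe sets, the probe sets per symbol and the thresholds. The number of arrays limits precision.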

Additional observations from a re-analysis of the deposited data

How the results depend on the processing

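The members' differences come from the deposited averages and kept their value in every setting, while p-values moved. *Tmem8c* stayed called (1.77, log2) under each change of the test, with unadjusted p-values from 0.000120 to 0.0267 and adjusted p-values from 0.0286 to 0.511 (limma or unequal variances). With a trend on the mean and robust fitting, 1 member had an adjusted p under 0.05, and 1 member passed at an adjusted p of 0.1, *Tmem8c* in both cases. At 2-fold with an adjusted p under 0.05, 0 members were called higher. Among the companion genes, 3 instead of 5 were called higher with unequal variances, and 0 instead of 1 lower without moderation and with unequal variances. The call of *Mstn* was lost there. *Myh3* lost its call without moderation, with the trend and with unequal variances, and *Cdkn1a* with unequal variances. Of 137 values for the 28 named members and list genes, 123 stayed on the same side of the threshold, 13 moved above it and 1 moved below it, with no change of direction. *Pax7*, *Myf5* and *Bub1* fall under the filter on dim probe sets (mean below 5.715, log2) and have no value there. Each member has 1 probe set, so averaging probe sets was not run. No paired analysis was possible because the table analysed holds group averages, and for the same reason no replicate could be left out.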
